A study of Mus musculus with 12 samples.

Results

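Dendritic cells that have taken up antigen mature, switch on the chemokine receptor CCR7 and follow its ligands CCL19 and CCL21 into lymphatic vessels and lymph nodes, where they meet T cells. Maturing cells also make CCL17 and CCL22, the ligands of CCR4 on regulatory T cells and type 2 helper T cells, and they reorganise their cytoskeleton with fascin (Fscn1). CD40, engaged by CD40 ligand on T cells, acts through RelB and other NF-kB subunits and raises IL-12 p40 (Il12b), a subunit shared by IL-12 and IL-23. The genes described here are these 10, Ccr7, Ccl19, Ccl21a, Ccl17, Ccl22, Ccr4, Fscn1, Cd40, Relb and Il12b. They were taken by symbol out of 24956 gene symbols used, whatever their values. A count was found in at least 1 tumour for 9 of the 10, and 7 passed the filter on low counts and were tested.

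RNA abundance was measured in 12 tumours of PDA.69, a mouse pancreatic ductal adenocarcinoma line that the labels describe as KPC-derived and low in T cells (KPC is a genetically engineered mouse model of pancreatic cancer). Of these tumours, 6 grew in Alb-Cre+/+ STAT3f/f hosts and 6 in WT hosts. The albumin promoter that drives Cre is active in hepatocytes of the host, where Cre removes floxed Stat3, a transcription factor downstream of interleukin 6. All 12 tumours share the 1 line. RNA came from fixed, paraffin-embedded sections, and the libraries read the 3' ends of transcripts. The labels do not state host age, sex or tumour site, or whether any 2 tumours shared a mouse, so the p-values rest on the spread from tumour to tumour, which may be in part technical. Whole tumours were measured, so fewer cells of a type and less RNA per cell cannot be told apart.

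Libraries held 6083638 to 8085609 counts in Alb-Cre+/+ STAT3f/f tumours and 5691707 to 7594880 counts in WT tumours. Levels below are CPM, read counts scaled to a library of fixed size, with factors from the trimmed mean of M-values (TMM). Stat3 ran from 202 to 302.1 CPM in Alb-Cre+/+ STAT3f/f tumours and from 232 to 273.3 CPM in WT tumours, a gene that the tumour line itself can express, so its level checks nothing about the liver allele. Tumour epithelium was present in every tumour: Krt19, a ductal keratin, averaged 548 ± 31.9 CPM in Alb-Cre+/+ STAT3f/f tumours and 599.9 ± 47.9 CPM in WT tumours (SD, n = 6 each). Transcripts of acinar cells, the enzyme-secreting cells of normal pancreas, took 0.785 to 44.1% of counts in Alb-Cre+/+ STAT3f/f tumours and 0.578 to 22.4% in WT tumours. The share was above 15% in 5 tumours, Alb-Cre+/+ STAT3f/f tumours 1 to 4 and WT tumour 5, and results are given below with and without these where the call changed. Leaving them out keeps only Alb-Cre+/+ STAT3f/f tumours 5 and 6 against WT tumours 1, 2, 3, 4 and 6. A call lost in that fit can come from fewer tumours or from acinar content, and these were not told apart.

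Ccl17 and Ccl22 lie close together on chromosome 8, on the plus strand, with 58754 bases between the end of Ccl22 and the start of Ccl17. Their promoters are shown because these ligands of 1 receptor neighbour each other and had fold changes of more than 2. Each sequence is the RefSeq promoter in GRCm38.p6, 250 bases before to 50 after the annotated start, read 5' to 3' on the plus strand. The windows are chr8:94810203-94810502 for Ccl17 and chr8:94745434-94745733 for Ccl22, and capitals mark matches to the STAT motifs named below.
Ccl17: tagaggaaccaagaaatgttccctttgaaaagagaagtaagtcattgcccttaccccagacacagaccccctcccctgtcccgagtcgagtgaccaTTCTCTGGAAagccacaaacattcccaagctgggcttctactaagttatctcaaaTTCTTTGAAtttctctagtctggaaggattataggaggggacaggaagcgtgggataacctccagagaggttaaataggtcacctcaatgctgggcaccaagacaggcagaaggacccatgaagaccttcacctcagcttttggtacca
Ccl22: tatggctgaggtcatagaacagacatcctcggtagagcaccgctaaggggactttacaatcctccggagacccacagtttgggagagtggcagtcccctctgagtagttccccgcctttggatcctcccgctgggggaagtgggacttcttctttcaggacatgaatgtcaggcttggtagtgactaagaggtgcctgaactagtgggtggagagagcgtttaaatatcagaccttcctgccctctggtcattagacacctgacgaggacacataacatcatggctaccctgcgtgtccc
Motifs searched on both strands were TTCNNNGAA and its form with 4 free bases between TTC and GAA, to which STAT proteins are known to bind, and the NF-kB consensus. Ccl17 held 1 match to each STAT motif, which do not overlap: TTCTTTGAA at bases 152 to 160 of the window, starting 99 bases before the start site, and TTCTCTGGAA at bases 97 to 106, starting 154 bases before it. Ccl22 held no match to any of the motifs in these letters, and neither did the other members with a promoter in the table (7 of the 10 members had one). Of 32851 promoters of this length, 8.30% held TTCNNNGAA, 6.95% held the form with 4 free bases and 8.46% held the NF-kB consensus. These matches are a description of the sequence and do not show binding.

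Among the chemokines, Ccl17 was 2.18-fold higher in Alb-Cre+/+ STAT3f/f tumours than in WT tumours, and the chemokine receptor gene Ccr7 was 2.20-fold higher. These were the 2 members that passed the test over all genes (edgeR quasi-likelihood test, Benjamini-Hochberg adjustment over 12856 genes, threshold 0.05). By the same test 0 members were lower, as by DESeq2 and at an unadjusted p under 0.05, where 5 were higher (19.4% of all genes had such a p in either direction). Over all tested genes, edgeR called 2.23% higher and 0.747% lower, and DESeq2 called 618 of 12856 higher and 288 lower. Ccl22, Cd40 and Il12b had estimates of similar size, log2 fold changes of 0.93 to 1.32, and did not pass, while the estimates for Fscn1 and Relb were near 0. Of the 7 tested members, 6 had a log2 fold change above 0, as had 50% of all genes, and 5 had one of 0.9 or more, as had 4.84% of all genes. The cut of 0.9 lies just below the smallest of these 5 estimates, and members were chosen with earlier results known. These shares are therefore descriptions and test nothing.

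**Figure D1:**
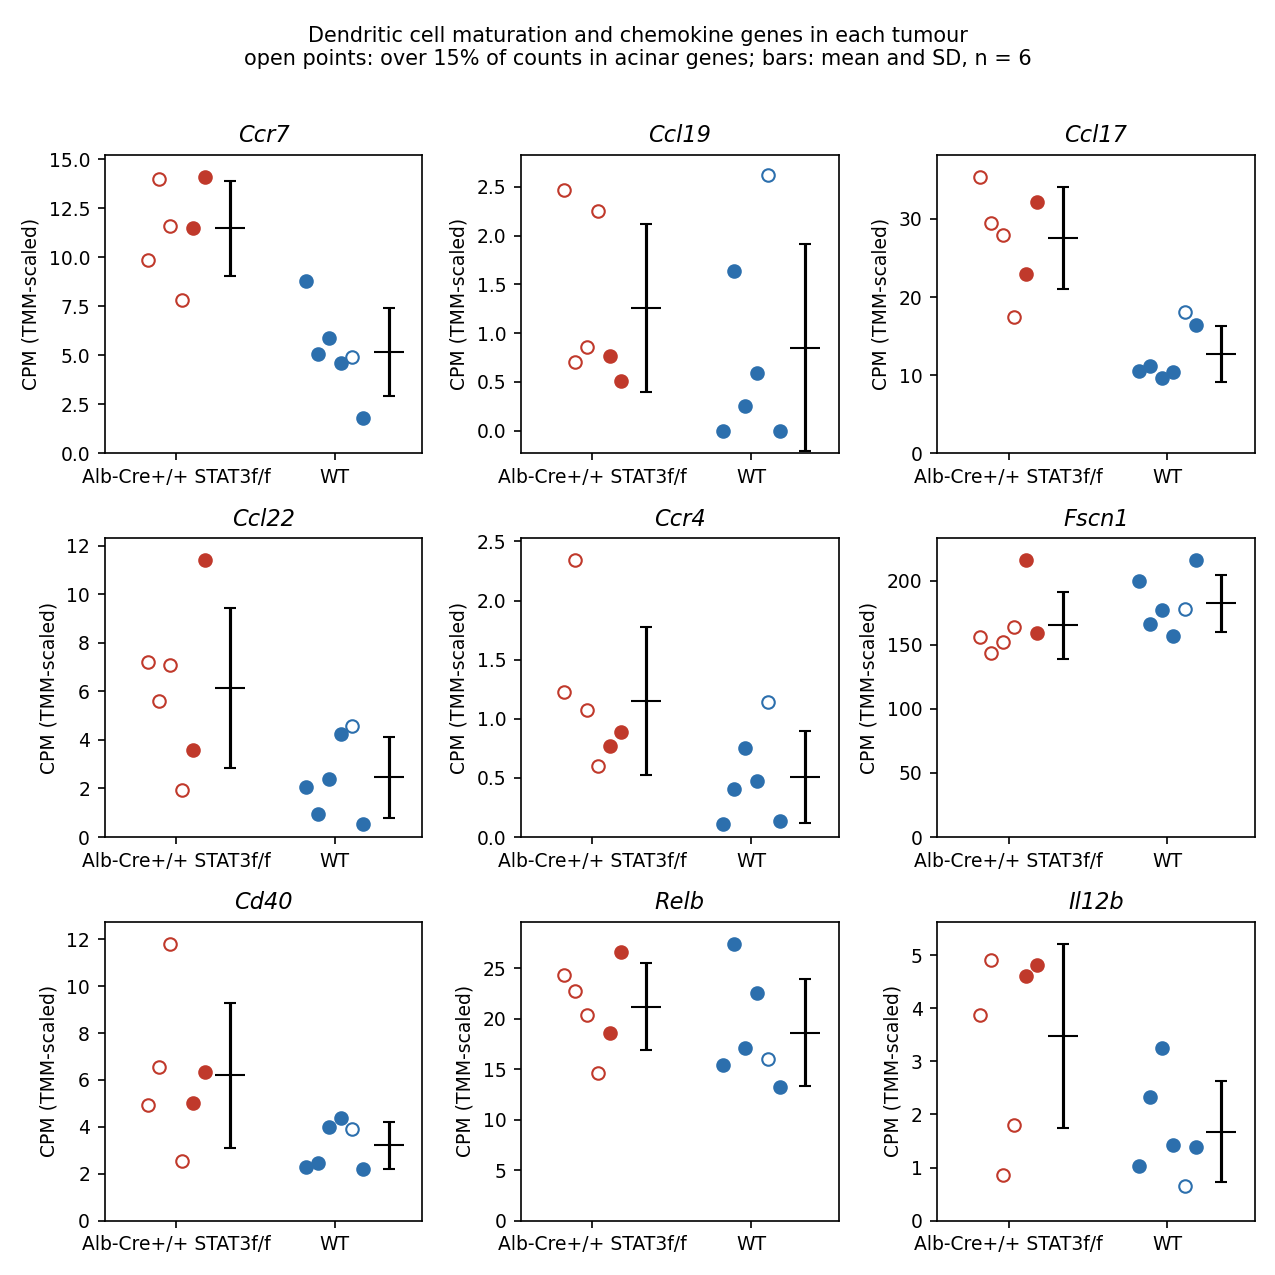
Level of 9 genes in each tumour, in TMM-scaled CPM on linear axes, for Alb-Cre+/+ STAT3f/f tumours in red and WT tumours in blue. Open points are the 5 tumours with over 15% of counts in acinar genes, and bars give the mean and SD of 6 tumours. Ccl21a, at 0 in all 12 tumours, is left out. Ccr7, Ccl17 and Cd40 each have 5 Alb-Cre+/+ STAT3f/f tumours above every WT tumour, and the groups of Fscn1 and Relb overlap. At least 5 tumours lie above every WT tumour for 4.21% of all tested genes.

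Ccl17 encodes a chemokine that draws CCR4-bearing T cells, and its gene lies at chr8:94810453-94812036 on the plus strand. Its lowest, median and highest levels were 17.4, 28.7 and 35.4 CPM in Alb-Cre+/+ STAT3f/f tumours, against 9.61, 10.8 and 18.1 CPM in WT tumours. Only the lowest Alb-Cre+/+ STAT3f/f tumour, tumour 4, fell within the WT range, and the other 5 lay above every WT tumour. At least 5 tumours lay above every WT tumour for 4.21% of all tested genes. Means were 27.6 ± 6.49 CPM in Alb-Cre+/+ STAT3f/f tumours and 12.7 ± 3.61 CPM in WT tumours (SD, n = 6 each). The log2 fold change was 1.12 ± 0.20 (SE), with an edgeR adjusted p of 0.00422. With acinar content as a covariate (the acinar score, a mean of log2 CPM) the estimate was 1.06 ± 0.22 with an adjusted p of 0.0135, and with the 5 acinar-rich tumours left out 1.25 ± 0.23 with an adjusted p of 0.0225. It passed the threshold with each tumour left out in turn, and missed it (adjusted p = 0.0942) where libraries were scaled by their totals alone.

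Ccl22 encodes the other main CCR4 ligand and lies at chr8:94745590-94751699 on the plus strand. It ranged over 1.95, 6.34 and 11.4 CPM (lowest, median, highest) in Alb-Cre+/+ STAT3f/f tumours and over 0.554, 2.21 and 4.58 CPM in WT tumours. The groups overlapped: 4 of 6 Alb-Cre+/+ STAT3f/f tumours were above every WT tumour, while tumours 4 and 5 were inside the WT range. At least 4 tumours lay above every WT tumour for 10.6% of all tested genes. Ccl22 had a log2 fold change of 1.32 ± 0.46 (SE) and did not pass (edgeR adjusted p = 0.124). Its estimate was the largest of the tested members and also had the widest error.

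Cx3cl1, the fractalkine gene, lies between Ccl22 and Ccl17 and was one of 16 listed chromosomal neighbours of Ccl17 and Ccl22 or of Ccl19 and Ccl21a. Among the 15 neighbours tested, 0 passed in either direction, by edgeR, by DESeq2 or at an unadjusted p under 0.05, against 2.98% of all genes by edgeR in both directions together, and their median log2 fold change was -0.05, against -0.00077 for all genes. Cx3cl1 averaged 32.8 ± 3.16 CPM in Alb-Cre+/+ STAT3f/f tumours and 28.4 ± 3.92 CPM in WT tumours (SD, n = 6 each), at a log2 fold change of 0.21 ± 0.12 (SE; edgeR adjusted p = 0.382). Il11ra1, an interleukin 11 receptor gene near Ccl19 on chromosome 4, was at 41.4 ± 3.21 CPM in Alb-Cre+/+ STAT3f/f tumours and 36.5 ± 7.55 CPM in WT tumours, with an edgeR adjusted p of 0.479.

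Few reads were counted for the CCR7 ligands. Ccl19, which stromal cells and mature dendritic cells make, lies at chr4:42754525-42756577 on the minus strand and did not pass the low count filter. Its 46 counts in Alb-Cre+/+ STAT3f/f tumours and 35 counts in WT tumours gave a ratio of 1.63 after scaling (95% exact binomial interval 1.03 to 2.61, counting error only). Its levels ran from 0.507 to 2.47 CPM in Alb-Cre+/+ STAT3f/f tumours and from 0 to 2.62 CPM in WT tumours, where 2 tumours had no count. The highest value of all was in WT tumour 5, and the groups overlapped over nearly their whole range. The mean difference, 0.41 CPM, was within the spread between tumours (exact two-sided permutation test p = 0.485, unadjusted).

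Ccl21a, the chemokine of lymphatic endothelium and lymph node stroma, at chr4:42772860-42773993 on the minus strand, had 0 counts in all 12 tumours, as had its near copies Ccl21b and Ccl21c. By counting error alone, a count of 0 over all 12 libraries allows a level of up to 0.0368 CPM of counted reads. Much of the Ccl21a transcript is shared with other genes. In GENCODE M21, 588 of its 821 windows of 50 bases (71.6%) also occur in transcripts of Ccl21b or of predicted genes, and so do 142 of the 251 windows in its last 300 bases, the stretch that 3' libraries read. For Ccl19 the counts are 428 of 724 windows (59.1%) and 145 of 251. The sources used here do not give the handling of reads with more than 1 match, so the levels of Ccl19 and Ccl21a are uncertain and the 0 does not show that Ccl21 RNA was absent. In the last 300 bases of the other members' transcripts, 0 windows were shared.

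Lymphatic endothelial markers were present: 4 of 5 tested markers had a positive log2 fold change, with a median of 0.65, and 0 passed by edgeR or by DESeq2 (2 were higher at an unadjusted p under 0.05). Their summed level was 81.4 to 158.8 CPM in Alb-Cre+/+ STAT3f/f tumours and 45.7 to 101 CPM in WT tumours. Blood endothelial markers had a median log2 fold change of -0.00496, and 0 of 8 passed by edgeR or by DESeq2 (1 was higher at an unadjusted p under 0.05).

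Ccr7 itself lies at chr11:99144196-99155077 on the minus strand. It ranged over 7.81, 11.6 and 14.1 CPM (lowest, median, highest) in Alb-Cre+/+ STAT3f/f tumours and over 1.80, 4.98 and 8.76 CPM in WT tumours. The overlap came from 1 tumour on each side, Alb-Cre+/+ STAT3f/f tumour 4 at 7.81 CPM and WT tumour 1 at 8.76 CPM. Means were 11.5 ± 2.42 CPM in Alb-Cre+/+ STAT3f/f tumours and 5.17 ± 2.24 CPM in WT tumours (SD, n = 6 each). The log2 fold change was 1.14 ± 0.28 (SE), with an edgeR adjusted p of 0.0274, and DESeq2 gave an adjusted p of 0.00267. The call was lost, with the direction kept, with the acinar covariate (1.03, adjusted p = 0.0764) and with library totals alone (0.74, adjusted p = 0.122). Without the 5 acinar-rich tumours it was lost at 1.29 ± 0.39 (SE; adjusted p = 0.18), with only Alb-Cre+/+ STAT3f/f tumours 5 and 6 left of that genotype. It was also lost on leaving out Alb-Cre+/+ STAT3f/f tumour 1, 2 or 6 or WT tumour 3 or 4 (edgeR adjusted p = 0.0527 to 0.0643). The cells that held Ccr7 RNA were not identified. Median log2 fold changes were 1.03 for T cell markers, 1.83 for B cell markers, 0.78 for conventional dendritic cell markers and 0.18 for dendritic cell maturation genes.

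Ccr4, the receptor for CCL17 and CCL22, lies at chr9:114490316-114504916 on the minus strand and was too low for the test across genes. It had 39 counts in Alb-Cre+/+ STAT3f/f tumours and 22 counts in WT tumours, a ratio of 2.20 after scaling (95% exact binomial interval 1.27 to 3.90, counting error only). Levels ran from 0.601 to 2.34 CPM in Alb-Cre+/+ STAT3f/f tumours and from 0.114 to 1.14 CPM in WT tumours, with 2 of 6 Alb-Cre+/+ STAT3f/f tumours above every WT tumour. The mean difference of 0.65 CPM had an exact two-sided permutation p of 0.039, unadjusted. Leaving out 1 tumour at a time gave differences of 0.41 to 0.77 CPM and exact p-values of 0.013 to 0.0887, with the 0.41 CPM in the absence of Alb-Cre+/+ STAT3f/f tumour 2. The p was over 0.05 without Alb-Cre+/+ STAT3f/f tumour 1, 2 or 3 or without WT tumour 1, 2, 4 or 6. Fitted with no filter on low counts, Ccr4 had an edgeR adjusted p of 0.426.

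Genes of CCR4-bearing cells were looked at through a list of regulatory and type 2 T cell genes. Of 13 listed, 6 were tested, all 6 with a positive log2 fold change (median 0.76, against -0.00077 for all genes). By edgeR 0 passed, 2 were higher at an unadjusted p under 0.05, and DESeq2 called 1, Tnfrsf18. Tnfrsf18, which encodes the costimulatory receptor GITR, averaged 8.54 ± 2.22 CPM in Alb-Cre+/+ STAT3f/f tumours and 4.00 ± 2.06 CPM in WT tumours (SD, n = 6 each), with an edgeR adjusted p of 0.0578. Tnfrsf4, which encodes OX40, averaged 6.79 ± 1.51 CPM in Alb-Cre+/+ STAT3f/f tumours and 3.88 ± 2.00 CPM in WT tumours, with an edgeR adjusted p of 0.149. The other tested genes, named after their values were seen, were Il2ra, Il1rl1, Gata3 and Ikzf2. Their log2 fold changes were 0.99, 0.70, 0.21 and 0.09, with edgeR adjusted p-values of 0.2895, 0.4516, 0.7396 and 0.8062. The listed genes that were not tested were too low for the test and went in both directions. Foxp3, the lineage factor of regulatory T cells, had 11 counts in Alb-Cre+/+ STAT3f/f tumours and 16 counts in WT tumours. Its means were 0.283 CPM and 0.352 CPM. Ctla4 had 44 and 22 counts, Il13 11 and 0, Ccr8 2 and 0, and Il5 2 and 3, in the same order. Il4 and Ptgdr2 were at 0 throughout. These low genes were picked with their values known.

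The costimulatory receptor gene Cd40 lies at chr2:165055627-165072948 on the plus strand. Its lowest, median and highest levels were 2.55, 5.67 and 11.8 CPM in Alb-Cre+/+ STAT3f/f tumours, against 2.22, 3.19 and 4.38 CPM in WT tumours. Here 5 of 6 Alb-Cre+/+ STAT3f/f tumours were above every WT tumour, and tumour 3 stood at the top. At least 5 tumours were so placed for 4.21% of all tested genes. Cd40 did not pass, at a log2 fold change of 0.93 ± 0.33 (SE) and an edgeR adjusted p of 0.127. The estimate was 0.65 without Alb-Cre+/+ STAT3f/f tumour 3.

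Relb, the NF-kB subunit of the non-canonical pathway that dendritic cell maturation requires, lies at chr7:19606217-19629438 on the minus strand. It ranged over 14.6, 21.5 and 26.6 CPM (lowest, median, highest) in Alb-Cre+/+ STAT3f/f tumours and over 13.2, 16.6 and 27.4 CPM in WT tumours, and the WT range enclosed every Alb-Cre+/+ STAT3f/f tumour. The log2 fold change was 0.19 ± 0.19 (SE), with an edgeR adjusted p of 0.6253. Its estimate was below 0 with library totals alone.

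The rest of the CD40 and NF-kB pathway was spread around 0: of 19 listed genes 17 were tested, 10 had a positive log2 fold change and the median was 0.016. By edgeR 0 passed, 1 was higher and 1 lower at an unadjusted p under 0.05, and DESeq2 called 1 lower, Traf2. The smallest p-values were those of Traf2, an adaptor of CD40 and TNF receptors, and Nfkbia, the inhibitor IkB-alpha. Traf2 averaged 3.66 ± 1.79 CPM in Alb-Cre+/+ STAT3f/f tumours and 6.99 ± 1.13 CPM in WT tumours (SD, n = 6 each), at -0.90 on the log2 scale (edgeR adjusted p = 0.0992). Without the 5 acinar-rich tumours the Traf2 estimate was -0.32 (edgeR adjusted p = 0.803). Nfkbia averaged 375.6 ± 33.8 CPM in Alb-Cre+/+ STAT3f/f tumours and 309.6 ± 31.7 CPM in WT tumours, with an edgeR adjusted p of 0.112. Cd40lg, the ligand of CD40 on activated T cells, had 9 counts in Alb-Cre+/+ STAT3f/f tumours and 2 counts in WT tumours, too few for the test (named after its counts were seen).

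Il12b, the p40 subunit, lies at chr11:44400063-44414033 on the plus strand. It ranged over 0.857, 4.25 and 4.91 CPM (lowest, median, highest) in Alb-Cre+/+ STAT3f/f tumours and over 0.654, 1.40 and 3.25 CPM in WT tumours. Alb-Cre+/+ STAT3f/f tumours fell into 4 above every WT tumour and 2, tumours 3 and 4, within the WT range. At least 4 tumours were above every WT tumour for 10.6% of all tested genes. Il12b did not pass, at a log2 fold change of 1.05 ± 0.44 (SE) and an edgeR adjusted p of 0.199.

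Its partner subunits had few counts. Il12a and Il23a were chosen after their values were seen. Il12a, which completes IL-12, had 3 counts in Alb-Cre+/+ STAT3f/f tumours and 0 counts in WT tumours, and Il23a, which completes IL-23, had 18 counts in Alb-Cre+/+ STAT3f/f tumours and 29 counts in WT tumours. Of 12 listed IL-12 family genes, 3 were tested, and 1 of them passed. Stat4, the transcription factor that carries the IL-12 receptor signal in T cells and natural killer cells, averaged 3.61 ± 1.41 CPM in Alb-Cre+/+ STAT3f/f tumours and 1.11 ± 0.43 CPM in WT tumours (SD, n = 6 each). Stat4 was above every WT tumour in 6 of 6 Alb-Cre+/+ STAT3f/f tumours. At least 5 were so for 4.21% of all tested genes, and the share with 6 was not counted. Its log2 fold change was 1.70 ± 0.39 (SE; edgeR adjusted p = 0.0196). That call was lost without the acinar-rich tumours (1.65, adjusted p = 0.242) and with the acinar covariate (1.54, adjusted p = 0.0796). It was also lost without Alb-Cre+/+ STAT3f/f tumour 2 or without WT tumour 1, 3 or 6 (edgeR adjusted p = 0.0515 to 0.0563).

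Fscn1 encodes fascin, an actin-bundling protein that marks mature dendritic cells and that carcinoma cells are also known to express. Its gene lies at chr5:142960343-142973185 on the plus strand. It ranged over 144.5, 157.8 and 216.1 CPM (lowest, median, highest) in Alb-Cre+/+ STAT3f/f tumours and over 156.9, 177.4 and 216.4 CPM in WT tumours. The groups overlapped, with 3 Alb-Cre+/+ STAT3f/f tumours below every WT tumour and 0 above. The log2 fold change was -0.14 ± 0.11 (SE), with an edgeR adjusted p of 0.513, and it was 0.04 without the 5 acinar-rich tumours.

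Tumour epithelial markers had a median log2 fold change of -0.30, and 4 of 10 were lower at an unadjusted p under 0.05. By edgeR 1 was called lower, Krt7, and by DESeq2 3, Krt7, Cdh1 and Msln. Over all tested genes, 0.747% were called lower by edgeR and 288 of 12856 by DESeq2. Their summed level was 2232 to 2957 CPM in Alb-Cre+/+ STAT3f/f tumours and 2782 to 3656 CPM in WT tumours. Krt7, a ductal keratin, averaged 347.6 ± 63.0 CPM in Alb-Cre+/+ STAT3f/f tumours and 522.4 ± 54.4 CPM in WT tumours (SD, n = 6 each), at a log2 fold change of -0.59 ± 0.12 (SE; edgeR adjusted p = 0.0113). Its call was lost without the acinar-rich tumours (-0.40, adjusted p = 0.23) and with the acinar covariate (adjusted p = 0.0511). The part of the epithelium in the level of Fscn1 was not tested.

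**Figure D2:**
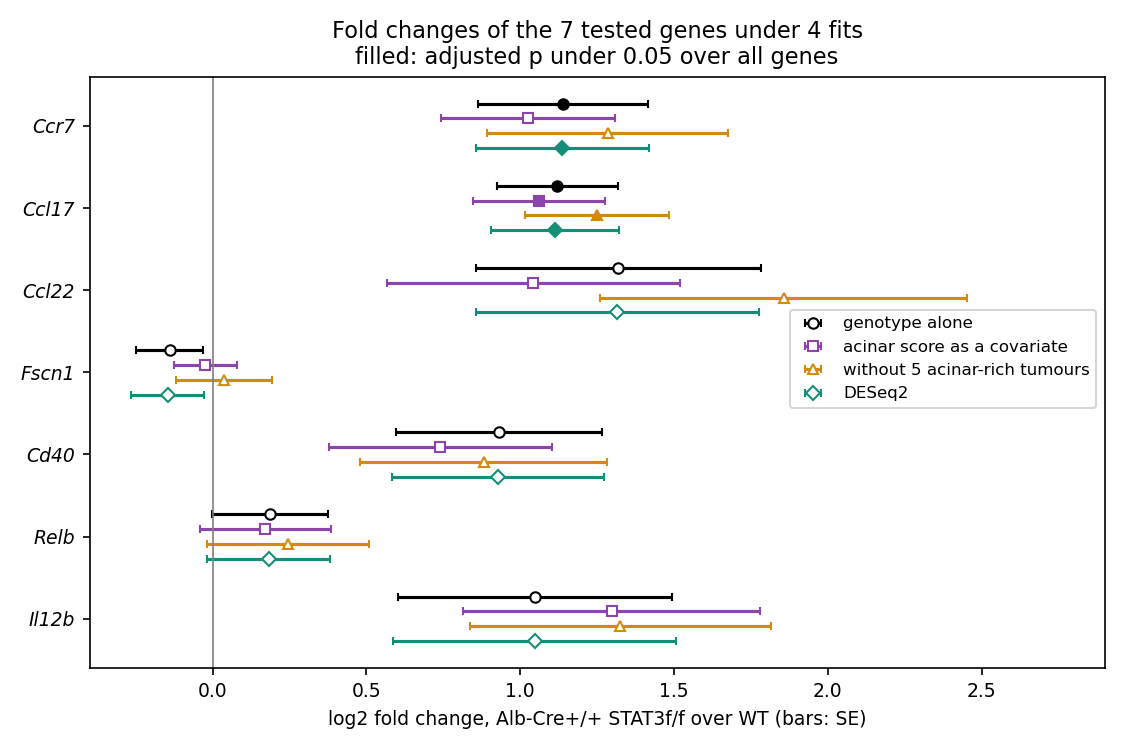
Log2 fold change of the 7 tested genes, Alb-Cre+/+ STAT3f/f over WT, with its SE, from edgeR with genotype alone, with the acinar covariate, without the 5 acinar-rich tumours, and from DESeq2. Filled symbols passed an adjusted p of 0.05. Ccl17 is filled in all 4 fits, Ccr7 in the fit with genotype alone and in DESeq2, and the other 5 genes in none.

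Other genes known to rise when dendritic cells mature were spread to both sides of 0. Of 32 listed, 27 were tested and 19 had a positive log2 fold change, with a list median of 0.18. By edgeR 0 were called higher, 4 were higher at an unadjusted p under 0.05, and DESeq2 called 2 higher, Ccl5 and Pdcd1lg2, which encode a T cell chemokine and the checkpoint ligand PD-L2. In the other direction edgeR called 1. That gene was Lad1, which encodes ladinin 1, a protein of epithelial basement membranes that mature dendritic cells also express. It averaged 107.5 ± 15.6 CPM in Alb-Cre+/+ STAT3f/f tumours and 170.2 ± 16.0 CPM in WT tumours (SD, n = 6 each). All 6 Alb-Cre+/+ STAT3f/f tumours were below every WT tumour, a separation whose share over all tested genes was not counted. The log2 fold change was -0.66 ± 0.10 (SE; edgeR adjusted p = 0.00176). Without the acinar-rich tumours it was -0.58, with an adjusted p of 0.0581.

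Among 20 genes of lymphoid tissue chemokines and organisers, 12 were tested, 11 had a positive log2 fold change, the median was 0.71, and 2 passed by edgeR and 3 by DESeq2. Of these, Il7 encodes a stromal survival factor for lymphocytes and averaged 16.2 ± 3.28 CPM in Alb-Cre+/+ STAT3f/f tumours and 5.87 ± 2.60 CPM in WT tumours (SD, n = 6 each). The estimate for Il7 was 1.45 ± 0.26 on the log2 scale (SE), at an edgeR adjusted p of 0.0048. Without the acinar-rich tumours it was 1.49, with an adjusted p of 0.0802. For Il7, 6 of 6 Alb-Cre+/+ STAT3f/f tumours were above every WT tumour. At least 5 were so for 4.21% of all tested genes, and the share with 6 was not counted.

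Markers of other cell types that the tumours could hold were counted in the same fit. Of all tested genes, 50% had a log2 fold change above 0. EdgeR called 2.23% of all tested genes higher, and DESeq2 called 618 of 12856 higher. Conventional dendritic cell markers summed to 385.6 to 490.0 CPM in Alb-Cre+/+ STAT3f/f tumours and 274.5 to 335.6 CPM in WT tumours, with no overlap. How often sums of as many other genes separate the genotypes in this way was not counted. For macrophages, T cells, and regulatory and type 2 T cells, 5 Alb-Cre+/+ STAT3f/f sums exceeded the WT maximum. For each of the remaining lists, 0 to 4 did. The most abundant genes in the conventional dendritic cell sum were Cd24a and Irf8. Cd24a averaged 125.2 CPM in Alb-Cre+/+ STAT3f/f tumours and 127 CPM in WT tumours, and Irf8 110.5 and 64.55 CPM. The sum is therefore not a measure of cell number. Of 13 tested, 12 had a positive log2 fold change (median 0.78), edgeR called 3 higher and DESeq2 5. The other 10 did not pass by edgeR. Among them Xcr1, Clec9a, Batf3 and Zbtb46 had log2 fold changes of 0.69, 0.82, 0.86 and 0.57. Their edgeR adjusted p-values were 0.4215, 0.1456, 0.1869 and 0.5873, and these genes were picked with their values known. Wdfy4, needed in mice for cross-presentation by dendritic cells, averaged 34.8 ± 7.84 CPM in Alb-Cre+/+ STAT3f/f tumours and 14.5 ± 3.15 CPM in WT tumours (SD, n = 6 each), a log2 fold change of 1.26 (edgeR adjusted p = 0.000686). Clec10a, a lectin of dendritic cells and macrophages, had a log2 fold change of 1.22 with an edgeR adjusted p of 0.00176, and Irf8, a transcription factor of type 1 conventional dendritic cells, had 0.78 with an adjusted p of 0.0117. Without the acinar-rich tumours the adjusted p was 0.0501 for Clec10a and 0.134 for Irf8.

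Macrophage markers summed to 1578 to 2442 CPM in Alb-Cre+/+ STAT3f/f tumours and 1049 to 1586 CPM in WT tumours. All 10 were tested, all 10 had a positive log2 fold change (median 0.69), edgeR called 6 higher and DESeq2 9. Over all tested genes, 2.23% were called higher by edgeR and 618 of 12856 by DESeq2. Mertk, an engulfment receptor, averaged 51.7 ± 11.9 CPM in Alb-Cre+/+ STAT3f/f tumours and 26.3 ± 5.05 CPM in WT tumours (SD, n = 6 each), with an edgeR adjusted p of 0.00176. C1qb, a complement component made by macrophages, averaged 288.5 ± 41.1 CPM in Alb-Cre+/+ STAT3f/f tumours and 190.0 ± 28.1 CPM in WT tumours, with an edgeR adjusted p of 0.00714.

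T cell markers summed to 107.0 to 189.6 CPM in Alb-Cre+/+ STAT3f/f tumours and 68.1 to 109.2 CPM in WT tumours. The most abundant gene in that sum was Thy1, at means of 55.6 CPM and 51.1 CPM in the same order. Its log2 fold change was 0.12 (edgeR adjusted p = 0.618). The T cell sum is therefore not a measure of cell number. All 12 T cell markers tested had a positive log2 fold change (median 1.03), and 9 were higher at an unadjusted p under 0.05. Of all tested genes, 19.4% had such a p in either direction. By edgeR 1 was called, Cd247, the CD3 zeta chain, at 1.42 with an adjusted p of 0.0283, while DESeq2 called 6, among them Cd247. The Cd247 call was lost without the acinar-rich tumours (adjusted p = 0.247), with the acinar covariate (adjusted p = 0.0897), and without Alb-Cre+/+ STAT3f/f tumour 1, 2 or 6 or WT tumour 1, 3 or 6 (edgeR adjusted p = 0.0578 to 0.0769).

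B cell markers summed to 9.13 to 79.4 CPM in Alb-Cre+/+ STAT3f/f tumours and 8.18 to 29.3 CPM in WT tumours. All 6 tested had a positive log2 fold change (median 1.83). By edgeR 0 passed, 5 were higher at an unadjusted p under 0.05, and DESeq2 called 2, Bank1 and Cd79b. Of the defining genes Cd79a was at 0 in every tumour. Fibroblast markers had a median log2 fold change of 0.23, and edgeR called 1 of 9 higher and DESeq2 2. The edgeR call was Dcn, the matrix proteoglycan decorin, at 403.4 ± 108 CPM in Alb-Cre+/+ STAT3f/f tumours and 207.2 ± 62 CPM in WT tumours (SD, n = 6 each), with an edgeR adjusted p of 0.0337. The Dcn call was lost without the acinar-rich tumours (adjusted p = 0.201), with no filter on low counts (adjusted p = 0.0616), and without any 1 of Alb-Cre+/+ STAT3f/f tumours 1 to 3 or of WT tumours 1, 2, 3 and 6 (edgeR adjusted p = 0.056 to 0.0809). The acinar markers themselves had a median log2 fold change of 2.58, and 0 of 20 passed by edgeR or by DESeq2 (7 were higher at an unadjusted p under 0.05). The part of each of these cell types in the differences of Ccr7 and Ccl17 was not tested.

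**Figure D3:**
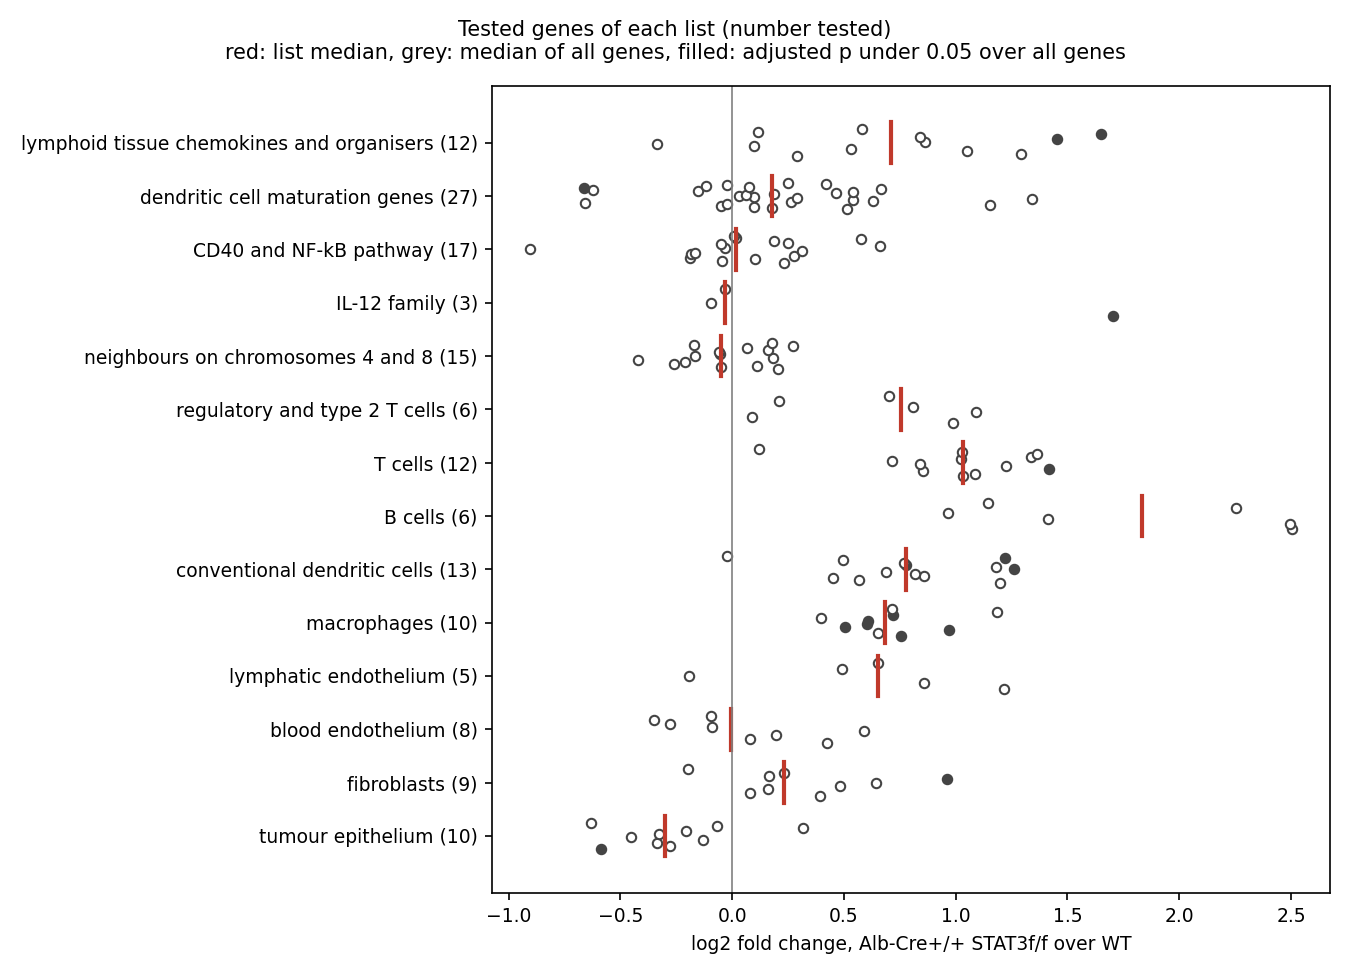
Log2 fold change, Alb-Cre+/+ STAT3f/f over WT, of every tested gene of 14 lists, 1 point per gene. Red marks are list medians, the grey line is the median of all genes, and filled points passed an adjusted p of 0.05 over all genes. The acinar list, with a median of 2.58, is left out. Medians of the T cell, dendritic cell and macrophage markers lie at 1.03, 0.78 and 0.69, that of the dendritic cell maturation genes at 0.18 and that of the CD40 and NF-kB pathway at 0.016.

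Across the 12 tumours the tested members were compared in 21 pairs, on log2 CPM, and 15 pairs had a positive Pearson r. Ccl22 and Cd40 varied together most closely, with r = 0.826 (permutation p = 0.00111, adjusted over the pairs 0.0233) and rho = 0.839 (permutation p = 0.00135, adjusted 0.0284). Without the 2 tumours farthest from the median of Ccl22, WT tumours 2 and 6, r was 0.775 (adjusted permutation p = 0.0775). Within genotype r was 0.705 in the 6 Alb-Cre+/+ STAT3f/f tumours (exact permutation p = 0.118) and 0.836 in the 6 WT tumours (exact permutation p = 0.0431, adjusted 0.452).

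The second pair was Ccr7 and Ccl22, with r = 0.755 (permutation p = 0.00427, adjusted 0.0448) and rho = 0.671 (permutation p = 0.0202, adjusted 0.0655). Without WT tumours 4 and 6, the farthest from the median of Ccr7, r was 0.685 (adjusted permutation p = 0.107). It was 0.724 within Alb-Cre+/+ STAT3f/f tumours (exact permutation p = 0.111) and 0.529 within WT tumours (exact permutation p = 0.285). These 2 pairs were the ones past an adjusted p of 0.05 by Pearson r, neither passed without its 2 farthest tumours, and pooled values also hold the difference between genotypes.

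The neighbours Ccl17 and Ccl22 had r = 0.669 over the 12 tumours (permutation p = 0.0184, adjusted 0.0937), with rho = 0.720. Within genotype r was 0.917 in Alb-Cre+/+ STAT3f/f tumours (exact permutation p = 0.0125, adjusted 0.0875) and -0.0959 in WT tumours. Against Relb, within Alb-Cre+/+ STAT3f/f tumours, r was 0.961 for Ccl17 (exact permutation p = 0.00556, adjusted 0.0583) and 0.9499 for Ccl22 (exact permutation p = 0.00417, adjusted 0.0583). In WT tumours r with Relb was -0.477 for Ccl17 and 0.117 for Ccl22. Within neither genotype did any of the 21 pairs pass an adjusted p of 0.05, and the difference of r between genotypes was not tested. Fscn1 and Relb had a negative r, -0.644 over the 12 tumours (permutation p = 0.0268, adjusted 0.0937) and -0.855 within WT tumours.

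**Figure D4:**
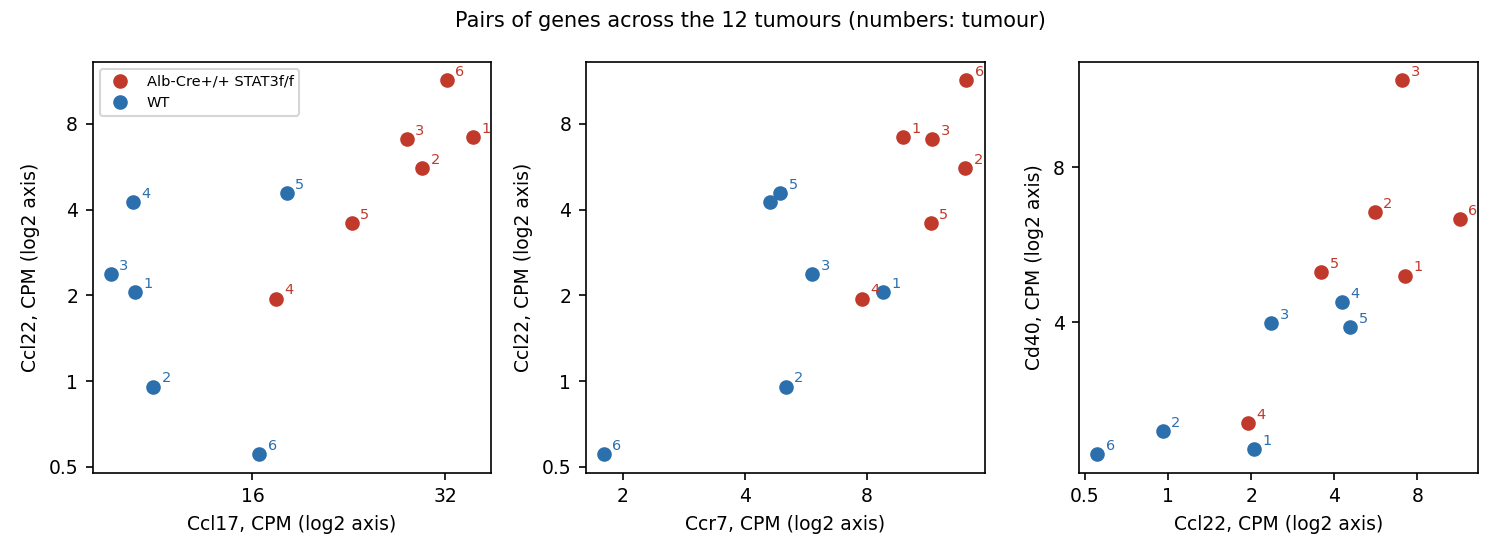
Log2 CPM of 3 pairs of genes in each tumour, Alb-Cre+/+ STAT3f/f in red and WT in blue, numbered by tumour. Ccl22 and Cd40 have r = 0.826, Ccr7 and Ccl22 r = 0.755 and Ccl17 and Ccl22 r = 0.669 over the 12 tumours. In the pair Ccl17 and Ccl22 the Alb-Cre+/+ STAT3f/f tumours lie along a line (r = 0.917) and the WT tumours do not (r = -0.0959).

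The genes whose pattern over the 12 tumours was most like that of each member were found by the root mean square difference of standardised log2 CPM, among 10317 genes with a mean of at least 5 CPM. The median difference over all searched genes was 1.40 to 1.43, depending on the member. The genes below were picked as the smallest of 10317 differences, so values under that median follow from the search. How near the closest of as many unrelated genes would lie was not tested. Ccl17 was closest to Stk17b at 0.249, Milr1 at 0.364 and Slfn1 at 0.370. Ccr7 was closest to Zc3hav1 at 0.363, Nrros at 0.377 and Sdc3 at 0.387. For Ccl22 the nearest were Csf1 at 0.324, the growth factor of macrophages, Ndufa8 at 0.362 and Lcp1 at 0.429, and for Cd40 they were P2rx7 at 0.384, Bscl2 at 0.398 and Cmklr1 at 0.412. Il12b, Relb and Fscn1 had no gene as near: their nearest were Ssh2 at 0.459, Ppp1r16b at 0.440 and Wwc2 at 0.477. Tumours share library scaling, tissue content and the genotype difference, so these distances are descriptions.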

How the data were processed

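The authors deposited whole-number gene counts that were not normalised. Per the labels' protocols, RNA was isolated with an RNeasy FFPE kit and libraries were made with the QuantSeq 3' mRNA-Seq FWD kit (Lexogen). The submitters' processing notes name STAR and the build mm10, and the sources used here do not give the counting tool, annotation, strand setting or handling of multiply matching reads. No molecular identifiers are named, so counting intervals cover counting error only. Of 24982 entries, 26 with a date number in place of a symbol were left out (0.069 to 0.166% of counts).

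Counts were tested in R 4.3.3 with edgeR 4.0.16 (filterByExpr with minimum count 10, minimum total 15 and proportion 0.7; TMM factors 0.578 to 1.29; robust quasi-likelihood test with genotype alone, two-sided), with Benjamini-Hochberg adjustment over 12856 genes. DESeq2 1.42.0 was an alternative. The pipeline was tested on simulated counts. Members below the filter were compared by exact permutation in scipy 1.17.1, and pairs by 100000 permutations. Log2 CPM used a prior count of 2. Positions and transcripts are from GENCODE M21 (GRCm38) and promoters from RefSeq (GRCm38.p6).

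Members and lists were chosen with earlier results of these data known. The text names part of the genes that the naming rule gives: all members, Stat3, list genes past the threshold (at most 6 in a pathway list and 4 in a marker list) or the 2 with the smallest p where none of a pathway list passed, the most abundant markers, and the 3 genes nearest each member in pattern. Genes that DESeq2 alone called, genes at 0 and a few others marked in the text were named after their values were seen. Of the genes the rule gives, 1 is not reported here. Libraries of 1 genotype differed in every pair by more than sampling noise (lowest chi-square per gene 12.7). Same-numbered tumours did not deviate together, so numbers do not pair them.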

Additional observations from a re-analysis of the deposited data

Results flagged for a closer look

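Single tumours stood apart from the rest of their group in 2 of 20 groups of 6 values tested (9 members and the acinar share, in each genotype), by a test of the gap to the nearest tumour that flags about 1 in 20 groups by chance. Ccr4 was at 2.34 CPM in Alb-Cre+/+ STAT3f/f tumour 2, against 1.23 CPM in the next tumour of that genotype, a gap of 0.636 of the group's range. Fscn1 was at 216 CPM in Alb-Cre+/+ STAT3f/f tumour 5, against 164 CPM in the next, a gap of 0.731 of the range. Tumour 5 was also the Alb-Cre+/+ STAT3f/f tumour with the smallest share of acinar transcripts, 0.785% of counts. The part of acinar tissue in these values was not tested.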

How the results depend on the processing

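Of the 7 tested members, 5 kept their direction under every alternative in which they could be tested. Fscn1 was at 0.037 without the acinar-rich tumours and Relb at -0.23 with library totals alone. That scaling moved the median of all genes to -0.41, and relative to it Ccr7 was at 1.16, Ccl17 at 1.12 and Ccl22 at 1.35. Under it Cx3cl1 was at -0.23, Il11ra1 at -0.22 and Nfkbia at -0.13, reversed against the main values. Of the other genes called, Il7, Stat4, Cd247, Wdfy4, Irf8, Clec10a, Mertk, C1qb and Dcn lost their calls under it (adjusted p = 0.0673 to 0.476). Members called higher numbered 0 with library totals alone, and 1 with at least 10 CPM in 6 tumours (where Ccr7 was not tested), with the acinar covariate, without the acinar-rich tumours and with the replicate number as a block. Leaving out 1 tumour gave 1 to 2 members higher, and none lower under any alternative. Ccl22 kept an adjusted p above 0.05 throughout (0.0548 to 0.394), as did Cd40 (0.0503 to 0.439) and Il12b (0.136 to 0.341). Tnfrsf18 passed with no filter on low counts (0.046), with DESeq2 (0.0144), and without Alb-Cre+/+ STAT3f/f tumour 4 (0.0332) or WT tumour 2 (0.018), and Traf2 with DESeq2 (0.0427) and without Alb-Cre+/+ STAT3f/f tumour 6 (0.0485). Over all genes, 287 were called higher and 96 lower. The calls higher numbered 32 with library totals alone, 618 with DESeq2, 133 with the acinar covariate, 83 without the acinar-rich tumours and 145 with the replicate block. The calls lower numbered 288 with DESeq2, 32 with the covariate, 14 without the acinar-rich tumours and 44 with the block. With 1 tumour left out the range was 141 to 471 higher and 37 to 222 lower. The count of higher calls moved by over 1.5 times without Alb-Cre+/+ STAT3f/f tumour 1 (141), 2 (186) or 5 (471) and without WT tumour 1 (187), 3 (169), 4 (182) or 6 (157). That of lower calls did so without each tumour except Alb-Cre+/+ STAT3f/f tumour 6 (73) and WT tumour 2 (72). The cause was not tested. With the replicate block, Ccr7 had an adjusted p of 0.0673 and Ccl17 of 0.0162, and the calls of Stat4, Cd247 and Irf8 were lost (adjusted p = 0.0622 to 0.0691), while no other named call was; same-numbered tumours correlated from -0.513 to 0.127, and number 4 alone correlated best with its own. Without the 2 farthest tumours 1 pair passed an adjusted p of 0.05, in place of 2, and it was another pair, Ccl22 and Relb (r = 0.872, adjusted permutation p = 0.029, against r = 0.527 over the 12 tumours). With 1 tumour left out, the mean differences were 0.17 to 0.76 CPM for Ccl19 and 0.41 to 0.77 CPM for Ccr4. Ccl19, Ccl21a and Ccr4 were too low for the test across genes, and whether depth or the counting of shared reads set the levels of Ccl19 and Ccl21a was not tested.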
